A study of Mus musculus with 6 samples.

Results

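Activator protein 1 (AP-1) genes and other immediate early genes were described in heart tissue of 15-day-old mice, 3 labelled Nat10flox/flox (flox) and 3 labelled Nat10-CKO (CKO, a cardiomyocyte-specific knockout of Nat10, which encodes an RNA acetyltransferase). The set is 10 of the 54532 genes in the deposited expression table, taken by gene name: Fos, Fosb, Fosl1, Fosl2, Jun, Junb, Jund, Egr1, Ier2 and Ier3. The promoter that drives the deletion, whether control mice also carried a recombinase, and the time of day and delay at which hearts were taken are not given in the sources used here. Messenger RNA was sequenced from each heart. The deposited values gave back 15048038 to 16280061 reads assigned to genes per heart. Levels are in FPKM, fragments divided by gene length and by a scaled library size, so that levels can be compared between genes. Where values of single hearts are listed, they stand in the order of replicates 1, 2 and 3.

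AP-1 is a pair of proteins joined through leucine zippers. It holds a Jun family protein (Jun, Junb or Jund) joined to another Jun protein or to a Fos family protein (Fos, Fosb, Fosl1 or Fosl2), and it binds short DNA sites in front of its target genes. Most of these genes are immediate early genes: their transcription starts within minutes of a growth factor, stretch, stress or adrenergic signal, needs no new protein, and the messenger RNA decays fast. In the heart they are known for early responses to pressure load and injury, and they also respond to handling of the tissue.

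Nat10 messenger RNA did not separate the groups, at 3.87, 3.78 and 4.57 FPKM in the 3 flox hearts and 3.69, 3.75 and 4.18 FPKM in the 3 CKO hearts, so directions below are for hearts labelled CKO (Nat10 log2 change −0.06 ± 0.12, SE, limma adjusted p = 0.768). The hearts had the muscle markers of their labelled tissue: 12 cardiomyocyte genes summed to 21252 to 27475 FPKM in the flox hearts and to 15319 to 16245 FPKM in CKO hearts. In whole tissue, fewer cells of a type and less RNA per cell cannot be told apart.

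All 10 genes were detected in every heart and had a mean of at least 1 FPKM over the 6 hearts, the level from which genes were tested. Fosb passed that level through flox replicate 1 and CKO replicate 3 and was under 1 FPKM in the other 4 hearts. In flox hearts the levels ran from Jund and Jun, at 55.5 ± 19.9 and 51.6 ± 1.24 FPKM (SD, n = 3), through Ier2, at 33.3 ± 3.31 FPKM, and Egr1, at 23.7 ± 9.33 FPKM, to Ier3, Junb, Fos and Fosl2, which lay between 13.9 and 16.2 FPKM on average. Jund and Jun did not differ beyond their spread, and neither did any neighbours in the order from Egr1 down to Fosl2. Fosl1, at 3.21 ± 0.741 FPKM, and Fosb, at 0.978 ± 1.18 FPKM, were lowest. In CKO hearts Ier3 stood first, at 66.2 ± 37.2 FPKM, but its range overlapped that of Jund, at 60.1 ± 22.3 FPKM. Summed over genes, the Jun family reached 122 ± 19.3 FPKM in the flox hearts and 136 ± 35.4 FPKM in CKO hearts, against 32.6 ± 24.2 and 30.2 ± 18.1 FPKM for the Fos family. Jun family messenger RNA exceeded Fos family messenger RNA in each of the 6 hearts, by between 2.11-fold in flox replicate 1 and 7.46-fold in flox replicate 2.

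**Figure D1:**
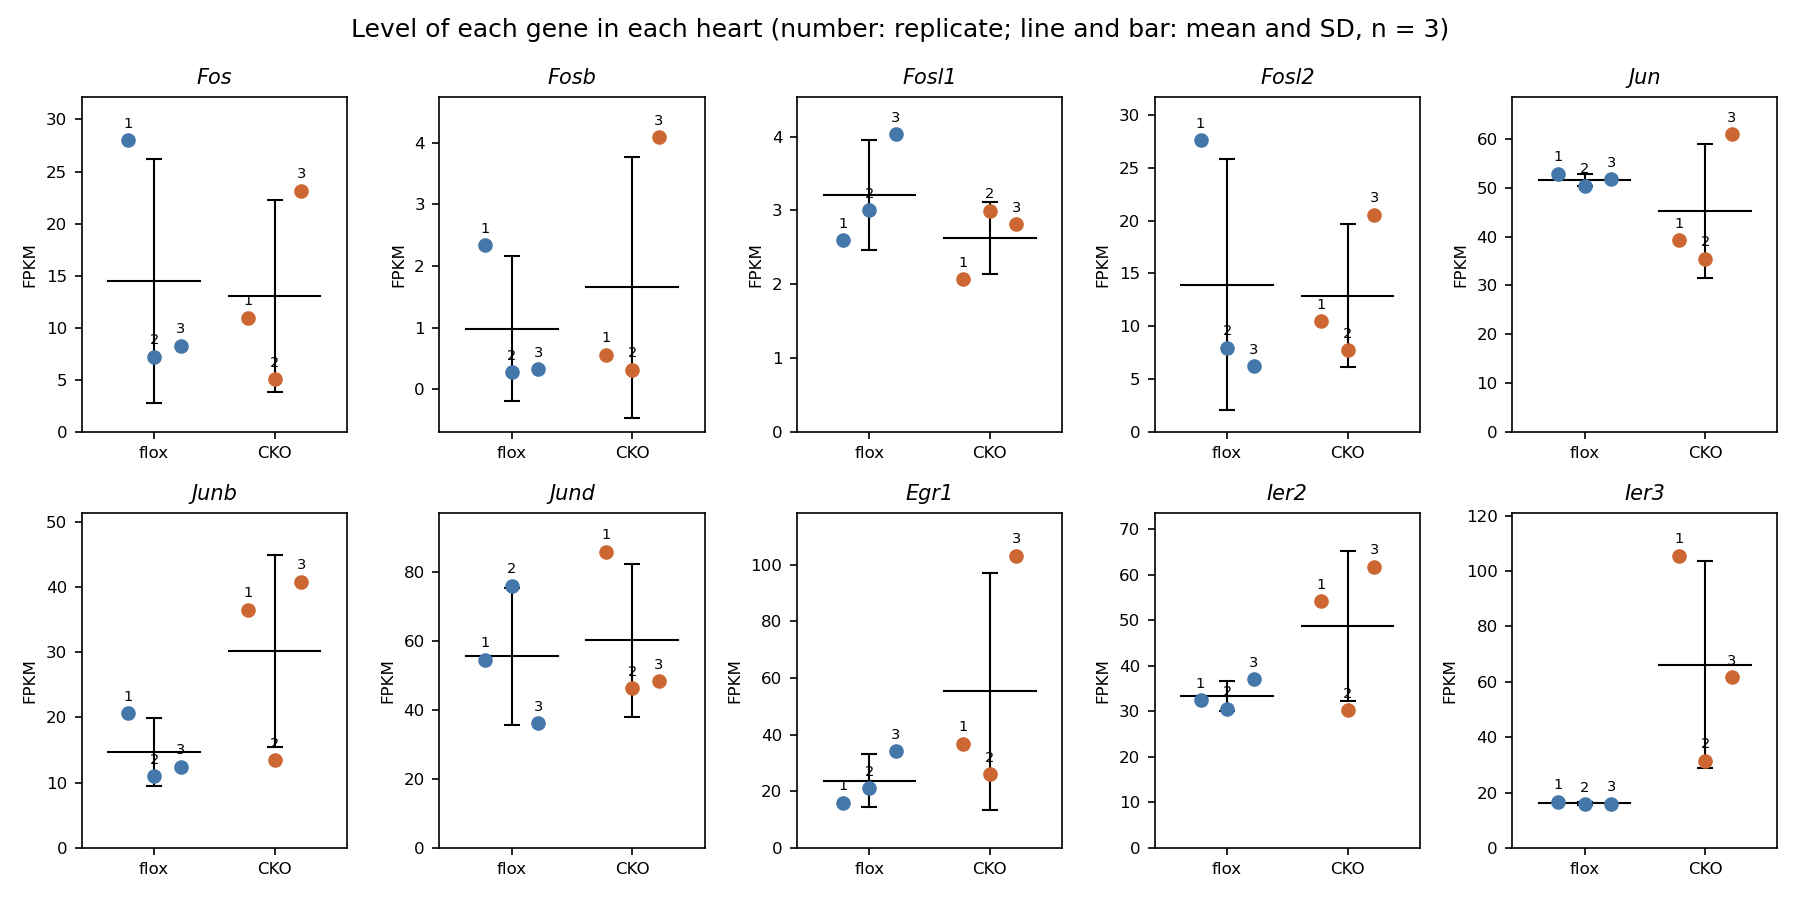
FPKM of each of the 10 genes (vertical axis, linear) in 3 flox and 3 CKO hearts, with replicate numbers beside the points and the mean and SD as line and bar. Ier3 is the gene whose groups do not overlap, with flox hearts at 15.9 to 16.7 FPKM and CKO hearts at 31.5 to 106 FPKM, while Fos, Fosb and Fosl2 are high in flox replicate 1 and CKO replicate 3.

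Of the 10 genes, 1 rose in CKO hearts, Ier3, and 0 fell. limma, which fits all genes at once, called 1 of the 10 at an adjusted p under 0.05, and the same 1 had an unadjusted p under 0.05; limma's voom on recovered reads also called 1. Over all 12469 genes tested, limma called 6.93% higher and 7.19% lower in CKO hearts, 14.1% in all, so 1 of 10 is near the background. An unadjusted p under 0.05 was reached by 4001 of the 12469, a larger share than among the 10 genes. The groups did not overlap for 1 of the 10 genes, again Ier3, against 19.7% of all genes with every CKO heart higher and 19.9% with every CKO heart lower. The median log2 change of the 10 genes was 0.21, beside −0.0013 for all genes tested.

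Ier3 encodes a short-lived stress-response protein that is known to be induced by NF-kappaB and to affect cell survival and ERK signalling. Its gene (ENSMUSG00000003541, GRCm38 chromosome 17, 35821684 to 35822923, plus strand, protein-coding) was at 16.7, 15.9 and 15.9 FPKM in the 3 flox hearts and at 106, 31.5 and 61.6 FPKM in the 3 CKO hearts. The flox hearts were nearly equal, and each CKO heart was above all of them, with CKO replicate 2 nearest to the flox level. The mean rose 4.10-fold, a log2 change of FPKM + 1 of 1.81 ± 0.38 (SE, n = 3 per group, 95% interval 0.93 to 2.69, limma adjusted p = 0.0236). The call was lost without flox replicate 1 (adjusted p = 0.0790), flox replicate 2 (adjusted p = 0.0801) or CKO replicate 3 (adjusted p = 0.0688), and with no filter on low genes (adjusted p = 0.0786), while the log2 change stayed between 1.39 and 2.25 in the 17 alternatives.

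The CKO hearts also differed in marker levels of several cell types, and their part in the level of Ier3 was not tested. Marker counts at an unadjusted p under 0.05 are to be read beside 4001 of 12469 over all genes. Of 10 macrophage and monocyte markers tested, 1 was higher and 0 were lower in CKO hearts by limma (4 at an unadjusted p under 0.05; voom also called 1), and the 12 on the list summed to 118 to 140 FPKM in the flox hearts and 149 to 263 FPKM in CKO hearts. Of 10 fibroblast markers, 5 were higher, at 753 to 952 against 1177 to 1518 FPKM in sum. Of 12 cardiomyocyte markers, 7 were lower. Of 8 atrial muscle markers tested, 2 were higher, Nppa (which is also a stress gene) and Dkk3, and 1 was lower, and the 9 on the list summed to 30.8 to 148 against 1388 to 2477 FPKM. Nppa supplied most of that sum in CKO hearts, and the 8 other genes summed to 21.4, 127 and 17.3 FPKM in the 3 flox hearts and to 77.5, 30.1 and 68.7 FPKM in the 3 CKO hearts, with overlapping groups. Myl7, the atrial myosin light chain, was at 0.242, 77.7 and 0.406 FPKM in the 3 flox hearts and at 31.2, 0.206 and 25.9 FPKM in the 3 CKO hearts. Flox replicate 2 and CKO replicates 1 and 3 were thus high in Myl7, as they were in Myl4 and Sln, and within the CKO group the order was that of Ier3. The flox group did not share this order. Flox replicate 2, the heart highest in Myl7, had Ier3 at 15.9 FPKM, the lowest of the 6 hearts and nearly equal to the other flox hearts. Myl4, Myl7 and Sln were picked with their values known. Over the 8 atrial markers tested, CKO replicate 2 was the lowest CKO heart for 4, against 31.9% of all genes. Of 9 smooth muscle and pericyte markers tested, 2 were lower, at sums over 10 genes of 595 to 753 against 457 to 527 FPKM. limma called 0 of 10 endothelial markers (2 at an unadjusted p under 0.05, 0 by voom), with sums of 489 to 543 against 410 to 491 FPKM, and 0 of 5 erythroid markers tested (0 at an unadjusted p under 0.05, 0 by voom), with sums over 8 genes of 477 to 822 against 400.5 to 811 FPKM. Neutrophil markers were low, with no limma call among the 2 tested (0 at an unadjusted p under 0.05, 0 by voom) and a sum over 10 genes of 4.67 to 9.41 FPKM in the flox hearts and 5.93 to 16.2 FPKM in CKO hearts; Ly6g, Mmp8 and Cxcr2 were at 0 in at least 1 heart. Ordered by Ier3, CKO replicates 1, 3 and 2 also followed in that order for the summed level of 10 heat shock genes, at 1187, 797 and 611 FPKM, of which Hspb1, a small heat shock protein gene, gave 612, 267 and 217 FPKM. The fibroblast marker sum had the same order, at 1518, 1428 and 1177 FPKM. So did the erythroid marker sum, at 811, 447 and 400.5 FPKM. The sums of the other cell type lists, each taken whole, did not.

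Among the genes whose profile over the 6 hearts was most like that of Ier3, measured as the root mean square difference of log2(FPKM + 1) after centring each gene on its own mean, the first 5 were Fhl1 (0.11), Mgp (0.20), Glul (0.22), Tubb2b (0.23) and Frzb (0.23). Fhl1, which encodes a stretch-linked LIM domain protein, was at 33.1, 30.6 and 27.3 FPKM in the 3 flox hearts and at 181, 58.2 and 94.0 FPKM in the 3 CKO hearts. Its CKO hearts fall in the same order as those of Ier3, which follows from choosing Fhl1 by its likeness to that profile. Mgp encodes a matrix inhibitor of calcification and Glul encodes glutamine synthetase.

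Egr1 encodes a zinc-finger transcription factor that is induced with Fos through the same kinases. It was at 16.0, 21.1 and 34.1 FPKM in the 3 flox hearts and at 36.7, 25.9 and 103 FPKM in the 3 CKO hearts. CKO replicate 3 was far above the rest, and CKO replicate 2 fell inside the flox range. The log2 change was 1.0 ± 0.50 (95% interval −0.15 to 2.16, limma adjusted p = 0.209), and without CKO replicate 3 it was 0.43.

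Junb, whose protein is a Jun family member that can restrain Jun, was at 20.7, 11.02 and 12.5 FPKM in the 3 flox hearts and at 36.5, 13.4 and 40.8 FPKM in the 3 CKO hearts. CKO replicates 1 and 3 were above the flox hearts and CKO replicate 2 was among them. The log2 change was 0.90 ± 0.42 (95% interval −0.08 to 1.87, limma adjusted p = 0.186). Ier2, a nuclear immediate early gene product, was also highest in CKO replicates 1 and 3, while CKO replicate 2 was just below every flox heart, with 32.4, 30.6 and 37.0 FPKM in the flox hearts and 54.2, 30.3 and 61.8 FPKM in the 3 CKO hearts (log2 change 0.48 ± 0.26, 95% interval −0.12 to 1.08, limma adjusted p = 0.243). Without CKO replicate 2 limma called both, Junb at 1.38 (adjusted p = 0.0226) and Ier2 at 0.78 (adjusted p = 0.0258), so that 3 of the 10 genes were then called. In that fit limma called 1794 of all 12469 genes tested, 960 of them higher. The heart left out was the lowest CKO heart for both genes. The last 351 bases of the Junb span overlap Prdx2 on the other strand, a gene at 88.9 FPKM, and since the sources used here do not state strand-specific counting, reads from that stretch cannot be assigned with certainty.

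Fos, Fosb and Fosl2 varied between hearts of the same group more than between the groups. Fos, the partner of Jun in the classical AP-1 dimer, was at 28.02, 7.18 and 8.27 FPKM in the 3 flox hearts and at 10.9, 5.02 and 23.2 FPKM in the 3 CKO hearts. Fosl2, which encodes FRA2, was at 27.6, 7.95 and 6.21 FPKM in the 3 flox hearts and at 10.5, 7.70 and 20.6 FPKM in the 3 CKO hearts. Fosb was at 2.34, 0.274 and 0.326 FPKM in the 3 flox hearts and at 0.556, 0.312 and 4.09 FPKM in the 3 CKO hearts. For each of these 3 genes flox replicate 1 and CKO replicate 3 were the highest of the 6 hearts, and the groups overlapped. Fosb rested on few reads, 26 in flox replicate 2 (exact 95% Poisson interval 17.0 to 38.1) and 404 in CKO replicate 3 (366 to 445), so that counting error alone does not span its range. That interval covers counting error only. The log2 changes between the groups were −0.11 ± 0.61 for Fos (95% interval −1.53 to 1.30, limma adjusted p = 0.914), 0.07 ± 0.54 for Fosl2 (−1.19 to 1.34, adjusted p = 0.940) and 0.29 ± 0.57 for Fosb (−1.05 to 1.63, adjusted p = 0.755). Each interval holds a change of more than 2-fold in either direction, and the sign of each changed when single hearts were left out.

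**Figure D2:**
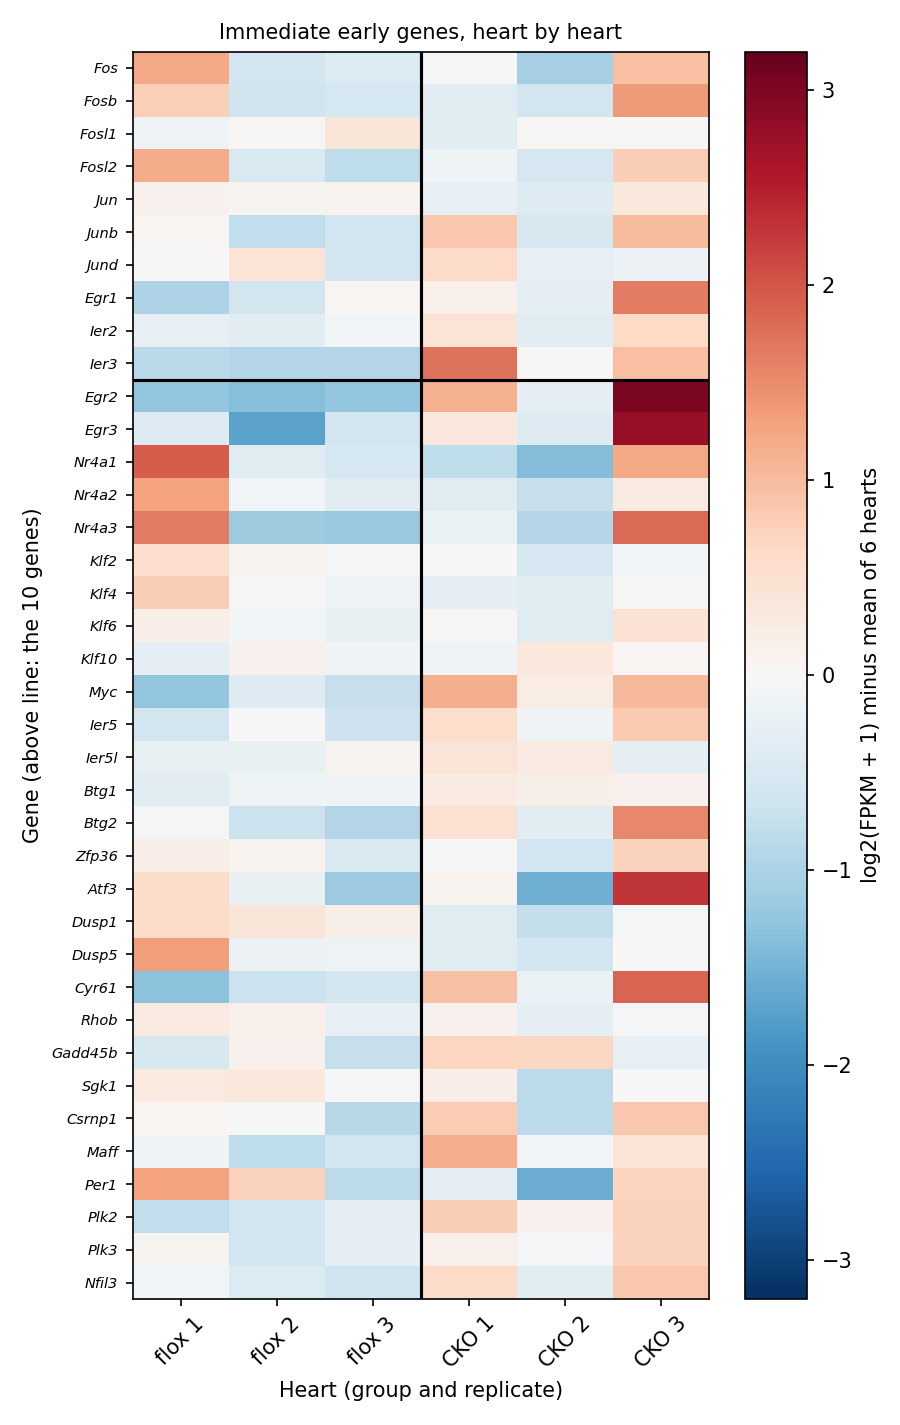
log2(FPKM + 1) minus the mean of 6 hearts (colour) for the 10 genes above the line and 28 other immediate early genes below it, in each heart (columns). Flox replicate 1 and CKO replicate 3 are high for Fos, Fosb, Fosl2 and the 3 Nr4a genes, and CKO replicate 2 is the lowest CKO heart for 9 of the 10 and 24 of the 28 genes.

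Jun, Jund and Fosl1 had overlapping groups as well. Jun, which encodes the partner of Fos, was at 52.8, 50.4 and 51.7 FPKM in the 3 flox hearts and at 39.2, 35.5 and 61.0 FPKM in the 3 CKO hearts, and the CKO hearts lay on both sides of the narrow flox range (log2 change −0.23 ± 0.20, 95% interval −0.71 to 0.25, limma adjusted p = 0.478). Jund, which is made steadily in resting cells, was at 54.5, 76.0 and 36.1 FPKM in the 3 flox hearts and at 85.8, 46.3 and 48.3 FPKM in the 3 CKO hearts, with overlapping groups (0.12 ± 0.32, 95% interval −0.64 to 0.87, limma adjusted p = 0.830). Fosl1, which encodes FRA1, was at 2.60, 3.00 and 4.03 FPKM in the 3 flox hearts and at 2.07, 2.99 and 2.81 FPKM in the 3 CKO hearts, from 59 to 115 reads per heart (−0.21 ± 0.17, 95% interval −0.61 to 0.19, limma adjusted p = 0.429). Jun and Jund each overlap an antisense gene in the table, at 0.220 FPKM and 0 FPKM on average. A change of more than 2-fold in FPKM + 1 lay outside the intervals of Jun, Jund and Fosl1.

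**Figure D3:**
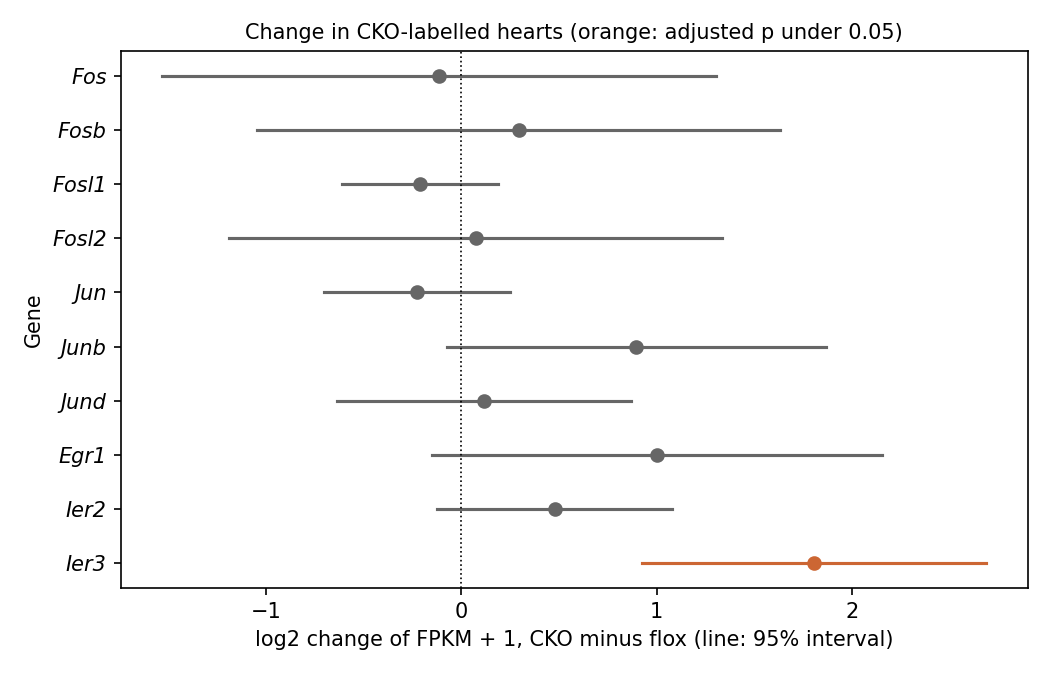
log2 change of FPKM + 1 in CKO against flox hearts (horizontal axis) with its 95% interval from limma for each of the 10 genes. The interval of Ier3, from 0.93 to 2.69, is the one that does not hold 0, and those of Fos, Fosb and Fosl2 are widest.

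The spread between hearts of a group was wide for most of these genes. As the SD of log2(FPKM + 1) between hearts of a group, averaged over both groups as a root mean square, Fos had 1.005, Fosb 0.94, Fosl2 0.89, Egr1 0.81, Junb 0.68 and Ier3 0.61, beside a median of 0.19 over all 12469 genes. These 6 of the 10 genes lay above the 95th percentile of all genes tested. Fos was at percentile 99.4, while Jun (0.29) was at percentile 76.1 and Fosl1 (0.23) at 61.1. The 10 genes were not drawn at random, and their spread was not tested.

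**Figure D4:**
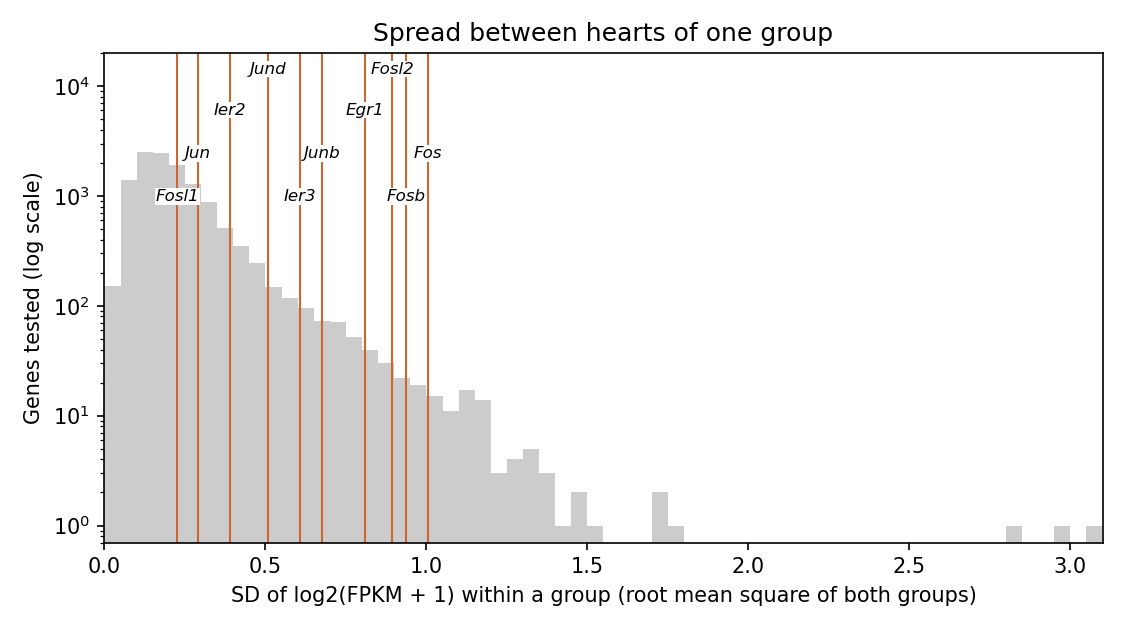
Number of genes tested (vertical log axis) by the SD of log2(FPKM + 1) between hearts of a group, with the 10 genes as lines. Fos lies at 1.005 and Fosl1 at 0.23, and the median of all genes is 0.19.

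The order of hearts was also counted in other immediate early genes. CKO replicate 2 was the lowest of the 3 CKO hearts for 9 of the 10 genes and for 24 of the other 28 immediate early genes tested, against 31.9% of all genes. The same heart was lowest of the 3 for 10 of 10 heat shock genes, 8 of 10 fibroblast markers, 11 of 17 textbook AP-1 targets and 6 of 25 upstream kinases and factors. Flox replicate 1 was the highest flox heart and CKO replicate 3 the highest CKO heart for 5 of the 10 genes (Fos, Fosb, Fosl2, Jun and Junb) and for 15 of the 28, against 13.1% of all genes. These are descriptions of patterns seen in the data. The orphan nuclear receptor Nr4a1 was at 129.97 FPKM in flox replicate 1 and 79.5 FPKM in CKO replicate 3, and at 12.03 to 25.2 FPKM in the other 4 hearts. Atf3, a stress-induced relative of AP-1, was at 20.1, 10.9 and 5.28 FPKM in the 3 flox hearts and at 14.2, 3.76 and 67.8 FPKM in the 3 CKO hearts. The clock gene Per1, also an immediate early gene, was at 44.9, 30.5 and 9.52 FPKM in the 3 flox hearts and at 14.4, 5.33 and 29.7 FPKM in the 3 CKO hearts. These 3 genes were named after their values were seen. Of the genes tested, those whose profile was most like that of Fos, a gene picked for this after its values were seen, were Sik1 (root mean square difference 0.29), Otud1 (0.37), Gm24944 (0.37), Gem (0.38) and Nr4a2 (0.40). Sik1, a cyclic AMP-induced kinase gene, was at 64.4, 20.7 and 16.6 FPKM in the 3 flox hearts and at 19.2, 14.1 and 35.6 FPKM in the 3 CKO hearts. Of 10 heat shock genes that often rise with tissue handling, 2, Hspa1a and Hspa1b, also had flox replicate 1 as the highest flox heart and CKO replicate 3 as the highest CKO heart. Hspa1b was at 1.30, 0.867 and 1.13 FPKM in the 3 flox hearts and at 3.16, 1.54 and 5.75 FPKM in the 3 CKO hearts, and its reads may be split with those of Hspa1a, a near-identical copy. The sum of the 10, carried by abundant members such as Hspa8 and Hspb1, came to 536, 572 and 582 FPKM in the flox hearts and to 1187, 611 and 797 FPKM in the 3 CKO hearts. Reads from the mitochondrial genome made up 17.0% of the library in flox replicate 1, 13.7% in CKO replicate 3 and 11.6% to 15.2% in the other 4. The part of collection, handling or depth in the pattern was not tested.

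The stretch of DNA in front of the genes that swing together is shown with that of Ier3, the gene that rose. RefSeq windows (GRCm38.p6) from 250 bases before to 50 after the annotated start were present for 7 of the 10 genes, and 4 are printed 5′ to 3′ on the gene's strand: Fos at chr12:85473640-85473939 (plus strand), Fosb at chr7:19309996-19310295 (minus strand), Fosl2 at chr5:32136222-32136521 (plus strand) and Ier3 at chr17:35821463-35821762 (plus strand). Capitals mark every match, on either strand, to the motifs named next.
Fos: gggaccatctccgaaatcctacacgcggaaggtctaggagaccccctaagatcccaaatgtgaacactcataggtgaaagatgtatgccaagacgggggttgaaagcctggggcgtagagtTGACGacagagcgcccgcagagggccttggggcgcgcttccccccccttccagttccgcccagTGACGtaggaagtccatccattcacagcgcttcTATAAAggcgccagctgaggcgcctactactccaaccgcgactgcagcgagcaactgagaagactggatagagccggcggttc
Fosb: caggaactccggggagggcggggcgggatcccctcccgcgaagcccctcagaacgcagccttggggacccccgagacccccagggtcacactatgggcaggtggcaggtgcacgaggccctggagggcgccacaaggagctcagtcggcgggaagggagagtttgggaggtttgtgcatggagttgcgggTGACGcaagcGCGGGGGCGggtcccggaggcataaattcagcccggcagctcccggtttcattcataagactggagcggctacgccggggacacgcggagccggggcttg
Fosl2: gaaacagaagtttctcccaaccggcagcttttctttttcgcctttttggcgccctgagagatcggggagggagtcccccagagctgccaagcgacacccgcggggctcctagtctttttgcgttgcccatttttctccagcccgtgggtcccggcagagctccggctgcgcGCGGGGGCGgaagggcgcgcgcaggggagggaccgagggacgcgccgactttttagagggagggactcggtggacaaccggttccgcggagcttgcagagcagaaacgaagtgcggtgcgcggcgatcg
Ier3: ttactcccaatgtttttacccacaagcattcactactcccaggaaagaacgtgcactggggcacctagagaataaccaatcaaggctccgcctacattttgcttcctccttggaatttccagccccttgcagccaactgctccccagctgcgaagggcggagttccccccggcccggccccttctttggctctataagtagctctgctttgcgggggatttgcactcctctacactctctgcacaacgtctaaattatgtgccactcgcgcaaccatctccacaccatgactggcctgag
Searched on both strands were the serum response factor site (the CArG box), the cyclic AMP response element TGACGTCA and its core TGACG (added after the windows were seen, and contained in the full element), the AP-1 site TGANTCA, the EGR site GCGNGGGCG and the TATA box TATAAA. Of 32851 RefSeq windows of the same length, 20.8% held TGACG, 13.6% the TATA box, 7.81% the AP-1 site, 5.55% the EGR site, 1.79% the full cyclic AMP response element and 1.63% the CArG box. Fos held TGACG at bases −129 to −125 and −66 to −62 and a TATA box at −33 to −28 from the start. Fosb held TGACG at −60 to −56 and an EGR site at −50 to −42, Fosl2 an EGR site at −79 to −71, and Junb TGACG at −106 to −102 and TATAAA at 1 to 6. No match to these letters was in the windows of Ier3, Jun and Jund. A site for NF-kappaB was not among those searched, so the Ier3 window says nothing of it. The Jund window lies outside the span of Jund in the deposited table, and that of Fosl2 starts inside the span of its gene. A match is a run of letters and not a measured site. Sites more than 250 bases before the start lie outside these windows, so a motif without a match here can still lie there.

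Around the AP-1 genes, regulators and targets were counted in lists, to be read beside the 6.93% of all genes called higher and 7.19% called lower. List counts at an unadjusted p under 0.05 stand beside 4001 of 12469 over all genes. Of 10 tested AP-1 partners and relatives (of 14 listed; Nrl was listed at 0 in every heart), limma called 0 (4 at an unadjusted p under 0.05, 0 by voom), at a median log2 change of 0.30. Atf4, a stress-response bZIP factor and the most abundant of them, was at 38.5 ± 1.84 FPKM in the flox hearts and 56.2 ± 13.6 FPKM in CKO hearts (log2 change 0.51 ± 0.19, limma adjusted p = 0.119). Of the 28 other immediate early genes tested (of 31), 2 rose, 1 fell and 25 were not called, at a median of 0.41. Myc, a growth-promoting transcription factor, went from 3.85 ± 1.37 FPKM up to 14.0 ± 4.70 FPKM (SD over 3 hearts; log2 change 1.62 ± 0.30, limma adjusted p = 0.0158), and Plk2, a kinase also known as a p53 target, from 21.3 ± 3.99 to 47.3 ± 11.05 FPKM (1.11 ± 0.21, limma adjusted p = 0.0189). Both calls were lost without flox replicate 1 (adjusted p of at most 0.0813 over single hearts left out) and without CKO replicate 3, and that of Plk2 also without flox replicate 2. Egr2 and Egr3, paralogs of Egr1, were higher in every CKO heart and missed the threshold: Egr2 was at 0.541 to 0.669 FPKM in the 3 flox hearts and at 7.69, 2.20 and 31.0 FPKM in the 3 CKO hearts (2.58 ± 0.71, limma adjusted p = 0.0515), and Egr3 at 0.850 to 3.57 FPKM in the flox hearts and 6.73, 3.60 and 41.3 FPKM in CKO (1.83 ± 0.77, limma adjusted p = 0.151). Egr2 passed the tested mean of 1 FPKM through the CKO hearts and was under 1 FPKM in every flox heart. Egr2 and Egr3 were named after their values were seen.

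Of 25 tested kinases and factors upstream of the immediate early genes (of 26), 1 rose, 1 fell and 23 were not called, at a median log2 change of −0.03. Mapkapk2, a kinase downstream of p38 that stabilises short-lived messenger RNAs, rose from 101 ± 9.98 to 161 ± 26.8 FPKM (0.66 ± 0.16, limma adjusted p = 0.0374). Map2k6, a kinase that activates p38, fell from 1.997 ± 0.309 to 0.825 ± 0.352 FPKM (−0.73 ± 0.18, limma adjusted p = 0.0383). It passed the tested mean of 1 FPKM through the flox hearts. Of 19 feedback genes tested (of 20), 2 rose, 1 fell and 16 were not called, at a median of 0.10. Dusp4, a nuclear phosphatase of MAP kinases, averaged 1.497 ± 0.128 FPKM in flox hearts and rose to 4.74 ± 1.003 FPKM (1.19 ± 0.15, limma adjusted p = 0.00655), and that call held without each heart in turn. Spry1, an inhibitor of receptor kinase signalling, rose from 23.7 ± 3.53 to 46.7 ± 13.1 FPKM (0.92 ± 0.23, limma adjusted p = 0.0396). Dusp1, a phosphatase of p38, JNK and ERK that is itself an immediate early gene, fell from 78.4 ± 10.6 to 45.8 ± 11.5 FPKM (−0.78 ± 0.21, limma adjusted p = 0.0447). The calls of Mapkapk2, Map2k6, Spry1 and Dusp1 were each lost without at least 3 single hearts, flox replicates 1, 2 and 3 among them, and adjusted p rose as high as 0.165, and those of Dusp1 and Map2k6 were also lost with TPM.

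Among 17 tested genes of a textbook list of AP-1 targets (of 21), 5 rose (against 6.93% of all genes), 0 fell (against 7.19%) and 12 were not called, at a median log2 change of 0.52; voom also called 5, and 10 had an unadjusted p under 0.05. The list was chosen with earlier results of these data known, so its count is a description and was not tested. Lif, a cytokine of the interleukin 6 family, was at 0.197, 0.121 and 0.537 FPKM in the 3 flox hearts and at 3.56, 3.54 and 3.72 FPKM in the 3 CKO hearts (1.86 ± 0.16, limma adjusted p = 0.00202). Lif was nearly equal in the 3 CKO hearts. Lif, 1 of the 5, passed the tested mean of 1 FPKM through the CKO hearts and was under 1 FPKM in every flox heart. Cd44, a hyaluronan receptor, rose from 3.40 ± 0.205 to 11.9 ± 2.93 FPKM (1.52 ± 0.18, limma adjusted p = 0.00507). Edn1, which encodes the vasoconstrictor endothelin 1, was at 3.60 ± 1.18 FPKM in flox hearts and rose to 12.5 ± 4.02 FPKM (1.54 ± 0.27, limma adjusted p = 0.0145). Hmox1, which encodes the heme-degrading enzyme heme oxygenase 1, averaged 6.28 ± 0.873 FPKM in flox hearts and 13.5 ± 4.55 FPKM in CKO hearts (0.96 ± 0.22, limma adjusted p = 0.0310). Mmp14 also rose (0.60 ± 0.14). The calls of Lif and Cd44 held without each heart in turn. That of Edn1 was lost without flox replicate 1 or CKO replicate 3, and that of Hmox1 without flox replicate 1 or 2, where adjusted p rose as high as 0.119. These genes have regulators other than AP-1, and the AP-1 genes themselves were measured as messenger RNA only. The CKO hearts also differed in cell type markers, with 5 of 10 fibroblast markers higher and 7 of 12 cardiomyocyte markers lower. The part of such differences in the levels of the target genes was not tested.

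**Figure D5:**
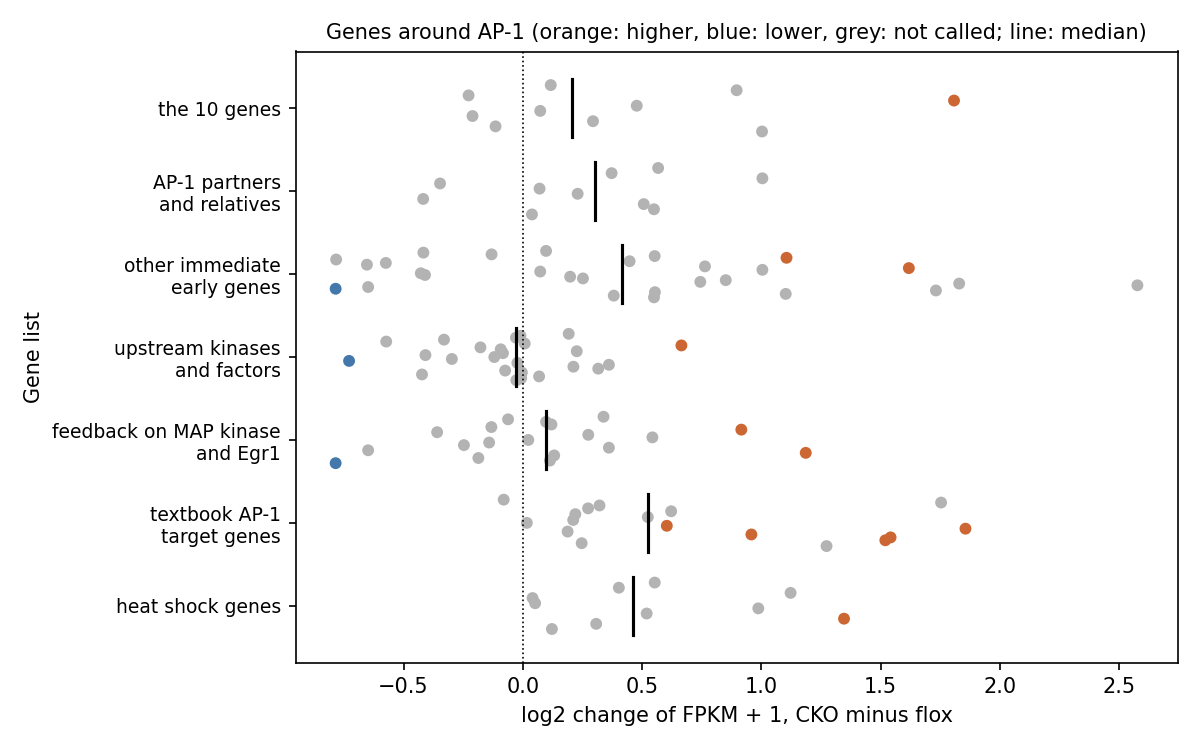
log2 change of FPKM + 1 in CKO against flox hearts for each gene tested in the 7 groups of genes (vertical axis), with called genes in colour and the median as a line. The textbook AP-1 targets have a median of 0.52 with 5 genes called higher, and the 10 genes a median of 0.21 with 1. The lists were chosen with earlier results of these data known.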

How the data were processed

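Messenger RNA of heart tissue from 6 independent replicates was captured on poly-T beads and sequenced in paired ends of 150 bases, per the labels' protocols. Per the submitters' processing notes and the series text, the authors used HISAT2 2.0.5 on GRCm38 (mm10), featureCounts 1.5.0-p3, DESeq2 1.20.0 and CASAVA, and deposited FPKM values for 54532 genes. FPKM was multiplied by gene length and divided by the smallest such product above 0 in the same heart, taken as a single read. The result was a whole number for 100% of the values above 0 (tolerance 0.01), and the deposited scaling equals median-ratio size factors.

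log2(FPKM + 1) was modelled in limma 3.58.1 under R 4.3.3 (genotype only, mean-variance trend) for the 12469 genes that averaged 1 FPKM or more, and two-sided p-values were Benjamini-Hochberg adjusted over all of them, with calls under 0.05. Fold changes on this scale understate low genes. All 10 genes entered the fit, so the permutation test set aside for genes under the filter was not needed. On simulated data the procedure called 52 of 100 genes changed 2-fold, 82 of 99 changed 4-fold and 8 of 12087 unchanged genes. A gene that is not called can thus still have changed 2-fold. The genes changed in the simulation were drawn at random from all genes tested. Of the 10 genes here, 6 lay above the 95th percentile of spread, so these shares cannot be carried over to them. The genes and lists were chosen with earlier results of these data known, and 1 gene of the AP-1 target list is not reported here and not counted. Beside the 10 genes and Nat10, up to 4 called genes with the largest change were named per list, or the most abundant where none was called, plus the 5 profiles nearest to the gene with the widest range. Myl4, Myl7, Sln and single heat shock genes other than Hsp90aa1 were picked for naming with their values known. The 95% intervals from limma give the precision that 3 hearts per group allow.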

Additional observations from a re-analysis of the deposited data

How the results depend on the processing

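limma called 1761 genes, against 641 with no filter, 2784 with array weights and 541 with the replicate block, and 364 to 1794 without single hearts. Among single hearts left out, the lowest counts came without flox replicate 1 (364), flox replicate 2 (478) and CKO replicate 3 (755). TPM moved the median log2 change of all genes to 0.13 and the calls to 1443 higher and 649 lower, from 864 and 897. Of the 10 AP-1 and immediate early genes, 1 was called, against 0 with no filter (1 at an unadjusted p under 0.05) and 0 to 3 without single hearts.

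Directions reversed for genes that were never called. Fos was at 0.014 with TPM and −0.62 to 0.46 without single hearts, from −0.11. Without single hearts Fosb was at −0.32 to 0.75, Fosl2 at −0.31 to 0.68 and Jund at −0.17 to 0.37, and Jund was at −0.20 with array weights. Nat10 was at 0.065 with TPM, 0.00085 with array weights and −0.10 to 0.013 without single hearts. The cause of these changes was not tested. Of 13 named genes called, 10 calls were lost with no filter, 7 with the replicate block and 2 with TPM, and 0 with the other pseudocounts, quantile normalization, other moderation, array weights or voom. The replicate block left Ier3 called (adjusted p = 0.0479). The labels do not say whether replicate numbers pair the hearts. Same-numbered hearts deviated from their group means with correlations of −0.28, −0.14 and −0.19 across genes, and no heart was closest to its own number. Correlations across all genes cannot exclude a pairing that touches some genes. With the block, 3 of the 10 genes had an unadjusted p under 0.05, against 1 without it. Over all genes that count was 3190 with the block and 4001 without it.

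At these depths Fosb and Fosl1 rest on as few as 26 and 59 reads in a heart.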

Other observations

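Other immediate early genes differed in which hearts were high. Cyr61, a matrix-associated growth factor gene, was at 25.1, 39.4 and 42.3 FPKM in the 3 flox hearts and at 124, 55.2 and 237 FPKM in the 3 CKO hearts, so that flox replicate 1, where Fos was highest, was its lowest heart (log2 change 1.73 ± 0.48, limma adjusted p = 0.0534). Dusp5, a nuclear phosphatase of ERK, was at 21.3 FPKM in flox replicate 1 and at 4.77 to 7.79 FPKM in the other 5 hearts. Maff, a small Maf partner of AP-1 relatives, had the order of Ier3 within the CKO hearts, at 13.5, 5.14 and 7.87 FPKM in the 3 CKO hearts and 2.71 to 5.07 FPKM in flox (1.004 ± 0.32, limma adjusted p = 0.0767). Of 10 heat shock genes, 1 rose, Hsp90aa1, a cytosolic chaperone, from 34.0 ± 7.97 to 89.5 ± 27.1 FPKM (1.35 ± 0.26, limma adjusted p = 0.0189), and 9 were not called. Its call was lost without flox replicate 1, flox replicate 2 or CKO replicate 3. These genes were named after their values were seen, except Hsp90aa1.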
